A study of Schizosaccharomyces pombe with 16 samples.

Results

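The genes described here are the 131 cytosolic ribosomal protein genes of fission yeast (Schizosaccharomyces pombe), of 5203 genes with a value on the arrays. They are the nuclear genes whose symbol in the gene annotation begins with rpl (large ribosomal subunit) or rps (small subunit) followed by a digit, and no measured value was used to choose them. All 131 such genes of the annotation were found on the array, 76 for the large and 55 for the small subunit, each with 1 exon probe. By their symbols they fall into 74 protein families. Of these, 20 have a single gene and 54 have several copies (paralogs), 3 of them with 3 copies, which gives 60 pairs of paralogs.

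A ribosome holds 1 copy of nearly every ribosomal protein, so the genes for the proteins of both subunits are transcribed together and make up a large part of the messenger RNA of a growing yeast cell. Fission yeast keeps more than 1 gene for most of these proteins, and the copies often encode the same or nearly the same protein. In yeasts the output of these genes follows growth, nutrients and the TOR kinase pathway, and many of them contain introns, although most fission yeast genes carry few. RNA polymerase II makes these transcripts, and its largest subunit Rpb1 ends in a tail of repeated heptads, the C-terminal domain (CTD), whose serines are phosphorylated during transcription.

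The series compared 4 strains with altered CTD heptads with wild type (WT) on splicing-sensitive 2-colour Agilent arrays. Each mutant rpb1 carried 18 repeats called the rump followed by 14 altered heptads. The strain S7A had alanine in place of the serine that is the seventh residue of each altered heptad. In S2A the serine at the second place was alanine instead. The strain S2A/S7A joined these changes, and S7E held glutamate, whose negative charge is often used to stand in for a phosphate, at the seventh place. Cells were taken in mid-log growth from YES, a rich medium, total RNA was labelled, and every array held 1 mutant sample and WT in the other colour. There were 4 arrays of S7A, 4 of S2A, 5 of S2A/S7A and 3 of S7E, each a separately grown replicate, and Cy5 carried the mutant on 7 arrays, Cy3 on 9. Whether the WT strain carried the same number of repeats, and whether WT RNA was shared between arrays, was not given in the sources used here.

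Values were taken as log2 of the mutant over WT, so that a negative value is read as a lower level in the mutant. The sources used here state no log base for these ratios and no direction. Arrays of 1 mutant with opposite dyes correlated across genes with r between 0.568 and 0.967, so all arrays were read the same way. Were the ratio WT over mutant, every lower below would read higher, and the reverse, with sizes and tests unchanged. Between 13061 and 14918 of 15207 probes had a value on an array, 129 of the 131 genes had one on all 16 arrays, and the number of arrays limits the precision. A gene is called lower or higher where its group mean differed from 0 in a limma fit over all 16 arrays with an adjusted p under 0.05. The ± is the standard error (SE) of that fit unless the standard deviation (SD) is named. If WT RNA was shared between arrays, how much WT itself varies does not enter that test. Because 1 probe stands for each gene and probe sequences were not given, signal shared by near-identical copies cannot be told apart.

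Some facts of the arrays touch every result below. On S2A replicate 4 the ribosomal protein genes had a median of 0.035, whereas on the other 3 S2A arrays it lay between -0.494 and -0.336. On each array 1 exact value recurred on 4 to 110 probes, and 0 to 27 ribosomal protein genes per array held it. Their share was 20.6% on S2A/S7A replicate 4, against 2.04% of all genes, and 15.3% on S2A replicate 4, against 1.45%. It was above the share of all genes on every array but S2A/S7A replicate 1 (0% against 0.251%) and S7A replicate 4 (0% for both). A recurring value was held on at least 1 array by 41 ribosomal protein genes and on 5 or more arrays by 14, with rpl1001 and rps2 at 12 arrays. The 14 genes had medians of 0.024 in S7A, 0.030 in S2A, -0.078 in S2A/S7A and 0.109 in S7E, against -0.131, -0.374, -0.252 and -0.399 for the 90 genes that never held such a value. Their part in the results was not tested beyond leaving them out. Together with S2A replicate 4, S7A replicate 4 and S7E replicate 1 had been found to stand apart in earlier work on these arrays, and counts are also given without these 3.

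The median of the ribosomal protein genes lay below WT on most arrays. The median of the genes on each S7A array was -0.045, -0.166, 0.008 and -0.154, in the order of the replicates. On the S2A arrays it was -0.494, -0.336, -0.337 and 0.035. On the S2A/S7A arrays it was -0.303, -0.141, -0.075, -0.134 and -0.362. On the S7E arrays it was -0.254, -0.408 and -0.289. Of the 16 arrays, the 2 with a median above 0 were S7A replicate 3 and S2A replicate 4. The mean of these medians was -0.089 ± 0.085 (SD, n = 4) in S7A, -0.283 ± 0.225 (SD, n = 4) in S2A, -0.203 ± 0.123 (SD, n = 5) in S2A/S7A and -0.317 ± 0.080 (SD, n = 3) in S7E. The median of all genes tested lay between 0.003 and 0.043 in the 4 mutants.

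**Figure D1:**
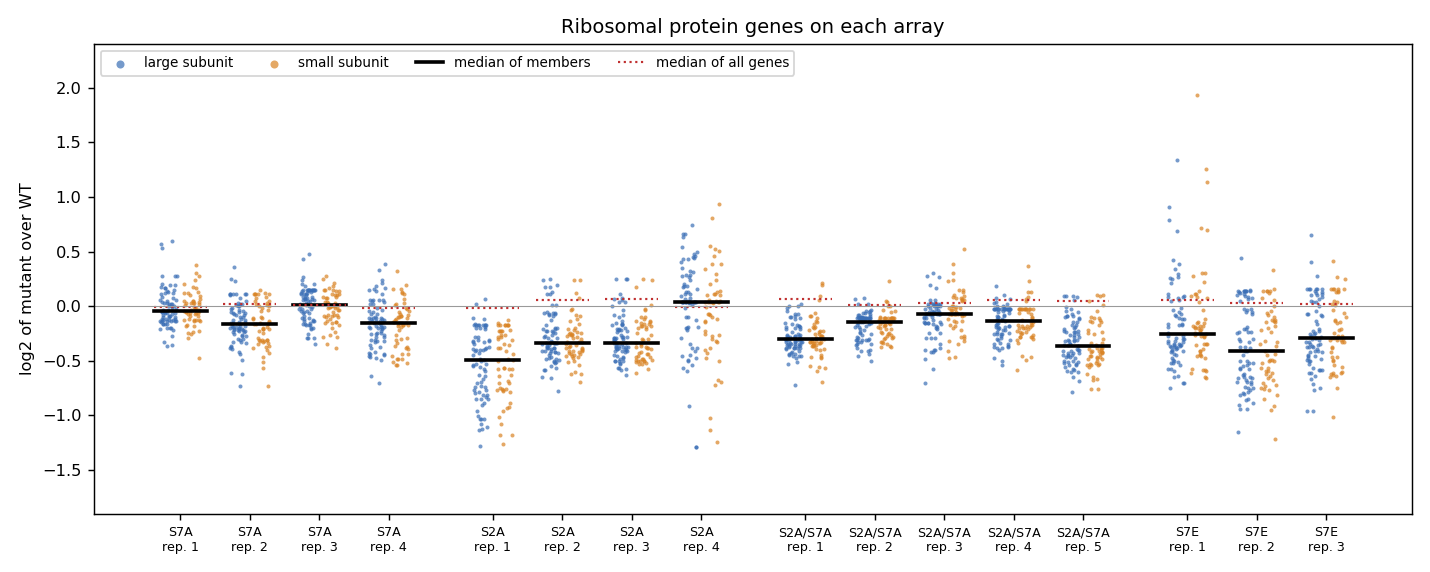
Each point is 1 of the 131 ribosomal protein genes on 1 array (vertical axis, log2 of mutant over WT), with large subunit genes on the left and small subunit genes on the right of each array. Thick bars are medians of these genes and dotted lines medians of all genes; S2A replicate 4 sits at 0.035 while the other S2A arrays sit at -0.336 or lower.

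In S7A, 13 genes were lower and 1 was higher (limma, adjusted p under 0.05), where 16.6% of all 5171 genes tested were lower and 18% higher. The 13 genes are 9.92% of the 131, but how this share stood to that of all genes depended on the processing. It was 23.7% against 25.3% of all genes with arrays scaled to equal spread and 22.9% against 28.8% with array weights. In a fit of the S7A arrays alone it was 21.4% against 18.9%, and with all probes of a gene 20.6% against 20.1%. In S2A, 75 genes were lower and 0 higher, or 57.3% lower against 27.1% of all genes lower and 31.3% higher. No gene was higher at an unadjusted p under 0.05 either, and 120 of 131 fitted values lay below 0. In S2A/S7A, 60 were lower and 0 higher, or 45.8% against 27.7% of all genes lower and 35.1% higher. Of the 131 fitted values in S2A/S7A, 126 lay below 0, and 0 genes were higher at an unadjusted p under 0.05. In S7E, 68 genes were lower and 11 higher, or 51.9% lower, against 27.6% of all genes lower and 33.5% higher. So the share of lower genes exceeded that of all genes in S2A, S2A/S7A and S7E, and the share of higher genes was below that of all genes in every mutant.

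The counts moved with single arrays. Without S2A replicate 4, 22 genes were lower in S7A, 104 in S2A, 84 in S2A/S7A and 80 in S7E. The S7A count was 8 without S7A replicate 1 and 5 without S7A replicate 2 or replicate 4, and the S2A/S7A count was 33 without S2A/S7A replicate 5. The S2A count was 53, with 3 genes higher, without S2A replicate 1. In S7A the 1 higher gene became 0 without S7A replicate 1, and 2 were higher without S7A replicate 4, S2A replicate 1 or 4, S2A/S7A replicate 4 or S7E replicate 1. Without S7E replicate 1, the higher genes in S7E numbered 2 in place of 11 and the lower genes numbered 58. With all 3 arrays that stand apart left out, the lower genes were 15, 109, 93 and 73 in S7A, S2A, S2A/S7A and S7E. These were 11.5%, 83.8%, 71.5% and 56.2% of the ribosomal protein genes, against 22.5%, 30.9%, 33% and 30.9% of all genes. For fits without a single array the share of all genes is not given here.

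**Figure D2:**
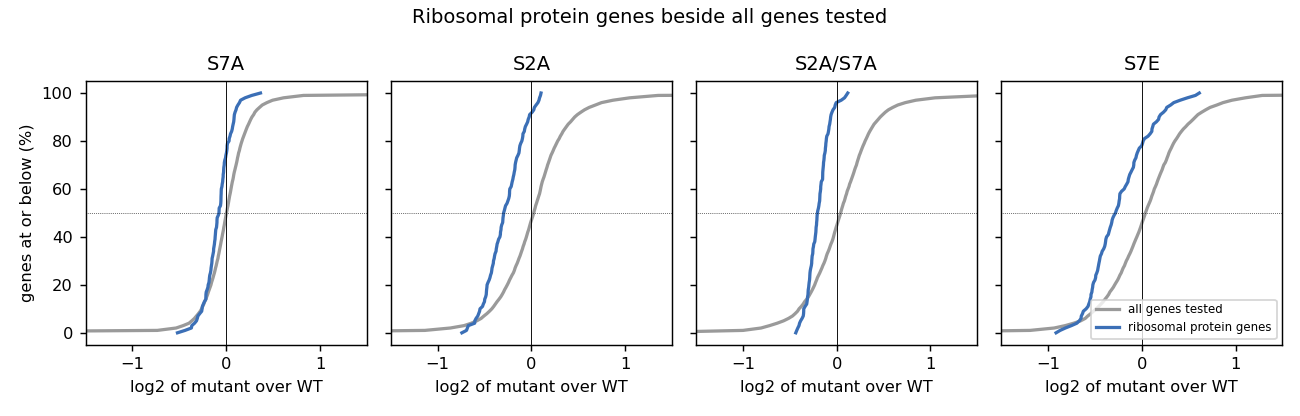
Cumulative share of genes (vertical axis, percent) at or below a fitted log2 value of mutant over WT (horizontal axis) for the 131 ribosomal protein genes and for all 5171 genes tested. In S2A, S2A/S7A and S7E the ribosomal protein curve lies to the left through its middle, with medians of -0.296, -0.204 and -0.280, but it has shorter tails; in S7A its median is -0.077.

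The low values were shared by many genes. In S2A/S7A the fitted values of the 131 genes ran from -0.43 to 0.12, with quartiles of -0.28 and -0.12. In S2A they ran from -0.74 to 0.10, with quartiles of -0.43 and -0.13. In S7E they were the most spread, from -0.91 to 0.61, with quartiles of -0.48 and -0.05. In S7A they ran from -0.52 to 0.37, with quartiles of -0.17 and 0.003. The median SE of a gene was 0.09 in S7A and S2A, 0.08 in S2A/S7A and 0.11 in S7E. In S7A it was 0.06 for the ribosome biogenesis and the translation factor genes listed below, and 0.11 for the stalk genes. That of all genes is not given here. A larger SE lowers the number of calls at the same threshold, and its part in the shares called was not tested.

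With all values of the exon probes used, no difference between large and small subunit genes stood out from the spread over arrays. On the 16 arrays the median of the large subunit genes minus that of the small subunit genes lay between -0.090 (S7E replicate 1) and 0.092 (S2A/S7A replicate 5). Its mean was 0.010 ± 0.030 (SD, n = 4) in S7A, 0.0077 ± 0.020 (SD, n = 4) in S2A, 0.026 ± 0.040 (SD, n = 5) in S2A/S7A and -0.028 ± 0.055 (SD, n = 3) in S7E. In each mutant that mean was smaller in size than its SD over arrays. On S2A replicate 4 and on S2A/S7A replicate 3 the medians of both subunits were the recurring value of the array itself, so that their difference there was 0, and the median of all 131 genes on S2A replicate 4 was that value too (0.039 with it left out). With recurring values left out, the S2A mean was 0.048, which is larger than the SD of 0.020 found with all values used. Of the 76 large subunit genes, 7 were lower in S7A, 41 in S2A, 34 in S2A/S7A and 39 in S7E. Of the 55 small subunit genes, 6 were lower in S7A, 34 in S2A, 26 in S2A/S7A and 29 in S7E. Of the higher genes in S7E, 5 were of the large and 6 of the small subunit.

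Over the 4 mutants, 34 of the 131 genes were lower in none, 30 in 1, 26 in 2, 30 in 3 and 11 in all 4. There were 12 genes that were higher in some mutant, 3 of which were lower in another, and 25 were called in neither direction in any mutant.

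In S7A the lowest gene was rps1802, which with its copy rps1801 encodes the protein S18 in the head of the small subunit. Both were among the lowest 8. On the 4 arrays rps1802 was at -0.48, -0.73, -0.38 and -0.49, and rps1801 was at -0.30, -0.47, -0.27 and -0.44. Both were below WT on every S7A array. The fitted values were -0.52 ± 0.098 for rps1802 (adjusted p = 0.00089) and -0.37 ± 0.096 for rps1801 (adjusted p = 0.0085). The gene rpl2502, whose product sits by the exit of the tunnel through which the new protein leaves, was at -0.36, -0.73, -0.29 and -0.47, with a fitted value of -0.47 ± 0.118 (adjusted p = 0.0069, and 0.055 without S7A replicate 2). The gene rpl1601 was at -0.32, -0.39, -0.34 and -0.44, with a fitted value of -0.38 ± 0.084 (adjusted p = 0.003). The others of the lowest 8 were rpl4301 at -0.34, rps2602 at -0.31, rpl902 at -0.29 and rps2302 at -0.27. The 1 higher gene was rpl4102, which encodes a very short basic protein. It was at 0.54, 0.25, 0.26 and 0.17, with a fitted value of 0.30 ± 0.090 (adjusted p = 0.017, and 0.14 without S7A replicate 1). Its copy rpl4101 was at 0.60, 0.36, 0.47 and 0.04, and did not pass the test (0.37 ± 0.144, adjusted p = 0.062).

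In S2A the lowest gene was rps1202, which encodes a protein of the beak of the small subunit. It was at -0.88, -0.38, -0.46 and -1.24 on the 4 arrays, with a fitted value of -0.74 ± 0.113 (limma, adjusted p = 5.2e-05). The single-copy genes rps20, rpl14 and rpl22 were also among the lowest 8. The first of these, rps20, was at -0.70, -0.44, -0.50 and -1.13 (fitted -0.69 ± 0.228, adjusted p = 0.017, and 0.058 and 0.11 without S2A replicate 1 or replicate 4). For rpl14 the values were -0.60, -0.48, -0.39 and -1.29 (fitted -0.69 ± 0.128, adjusted p = 0.00031). For rpl22 they were -0.85, -0.50, -0.56 and -0.50 (fitted -0.60 ± 0.088, adjusted p = 3.5e-05). All of these lay below WT on every S2A array. Replicate 4 was the lowest of the 4 arrays for rps1202, rps20 and rpl14, although the ribosomal protein median of that array was above 0. The others of the lowest 8 were rpl3801 at -0.68, rps23 at -0.67, rps902 at -0.60 and rps2602 at -0.60.

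In S2A/S7A the lowest gene was rpl902, a large subunit gene, at -0.72, -0.19, -0.14, -0.47 and -0.78 on the 5 arrays. Its fitted value was -0.43 ± 0.075 (limma, adjusted p = 0.00014). The gene rpl3601 was at -0.45, -0.41, -0.29, -0.38 and -0.59 (fitted -0.43 ± 0.089, adjusted p = 0.00071), and its copy rpl3602 was at -0.38, -0.33, -0.24, -0.29 and -0.65 (fitted -0.38 ± 0.099, adjusted p = 0.0036). All 3 genes were below WT on every S2A/S7A array. The others of the lowest 8 were rps2201 at -0.42, rps21 at -0.41, rps402 at -0.40, rpl44 at -0.40 and rpl2302 at -0.38.

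In S7E the lowest genes reached further down than in the other mutants. The small subunit gene rps1702 was at -0.59, -1.22 and -1.02, with a fitted value of -0.91 ± 0.152 (limma, adjusted p = 0.00012). The gene rpl902 was at -0.65, -1.15 and -0.96 (fitted -0.88 ± 0.097, adjusted p = 2.6e-06). The gene rpl2701 was at -0.70, -0.94 and -0.96 (fitted -0.86 ± 0.109, adjusted p = 9.8e-06). All 3 were below WT on each S7E array. The others of the lowest 8 were rpl4302 at -0.79, rpl26 at -0.75, rpl3402 at -0.70, rps402 at -0.67 and rpl2501 at -0.66.

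Of the 5 highest genes in S7E, rpl102 was the one that kept its call without S7E replicate 1. It encodes the protein of the L1 stalk, the mobile arm by which spent transfer RNA leaves, and was at 0.68, 0.44 and 0.66, with a fitted value of 0.58 ± 0.085 (adjusted p = 3.9e-05). The other 4 rested on S7E replicate 1. The single-copy gene rps29, for a small zinc-binding protein of the small subunit, was at 1.93, -0.14 and -0.21. Its fitted value of 0.61 ± 0.234 (adjusted p = 0.034) became -0.08 without replicate 1. The gene rps7 was at 1.25, -0.10 and -0.04 (fitted 0.44 ± 0.146, adjusted p = 0.018, and 0.84 without replicate 1). The genes rpl35A01 (1.33, 0.11 and 0.15) and rpl8 (0.91, 0.14 and 0.15) had fitted values of 0.56 and 0.41, with adjusted p of 0.35 and 0.32 without that array. Both also held the recurring value of an array often, rpl35A01 on 8 and rpl8 on 9 of 16 arrays.

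The 11 genes lower in all 4 mutants were rpl1601, rpl1701, rpl2702, rpl4301, rpl702, rpl902, rps1401, rps1801, rps1802, rps2302 and rps502. In rpl902 the fitted values were -0.29 in S7A, -0.56 in S2A, -0.43 in S2A/S7A and -0.88 in S7E. In rpl1701 they were -0.23, -0.47, -0.30 and -0.57, in the same order. In rps502, a protein of the head of the small subunit, they were -0.20, -0.44, -0.28 and -0.38. In rpl4301 they were -0.34, -0.56, -0.35 and -0.32. In S7A, 6 of these calls were lost when some single S7A array was left out, with an adjusted p of up to 0.13 for rps502 and 0.15 for rpl1701. For rps502 and rps1401 any 1 of the 4 arrays sufficed, for rpl902 replicate 2 or 4, and for rpl1701, rpl2702 and rps2302 replicate 1, 2 or 4. Calls were also lost in other mutants. In S2A/S7A the call of rps2302 was lost without replicate 1, 2 or 5 of that mutant (adjusted p = 0.050, 0.052 and 0.064), and that of rpl1601 without replicate 1 or 2 (adjusted p = 0.067 and 0.12). The gene rpl4301 was at -0.04, -0.65 and -0.29 on the S7E arrays, and its fitted value there became -0.16 without replicate 2 (adjusted p = 0.20). For rpl702 no call was checked with single arrays left out, and for rps1801 and rps1802 only the S7A call was. Since the 4 tests were run on arrays that may share WT RNA, the number of mutants in which a gene is lower is a description.

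The 3 genes with opposite calls were rpl102, rpl3002 and rps3001, each lower in S2A and higher in S7E. The gene rpl102 was at -0.35, -0.21, -0.20 and -0.57 in S2A, and its S7E values are given above, so the groups did not overlap. The gene rpl3002 was at -0.54, -0.07, -0.22 and -0.38 in S2A and at 0.38, 0.06 and 0.40 in S7E. The gene rps3001 was at -0.63, 0.07, -0.18 and -0.50 in S2A and at 0.11, 0.33 and 0.41 in S7E. The difference S7E minus S2A was 0.91 ± 0.112 for rpl102 (limma, adjusted p = 1.8e-05), 0.56 ± 0.116 for rpl3002 (adjusted p = 0.0018) and 0.55 ± 0.112 for rps3001 (adjusted p = 0.0015). The genes were chosen by their calls on these same arrays, so this test is no separate support for opposite directions. The S7E call of rpl3002 was lost without S7E replicate 1 or replicate 3 (adjusted p = 0.33 and 0.10), and that of rps3001 without any 1 of the S7E arrays (adjusted p from 0.054 to 0.097). Over all 131 genes, 5 were lower and 11 higher in S7E than in S2A, where 18.2% of all genes were lower and 17.3% higher. This contrast thus called a smaller share of the ribosomal protein genes than of all genes. The number of calls also depends on the SE, whose median here was 0.139, so fewer calls need not mean smaller differences.

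Differences between mutants were tested in the same fit. In S2A minus S7A, 29 genes were lower and 0 higher, or 22.1% lower, against 20% of all genes lower and 21.9% higher. No gene was higher at an unadjusted p under 0.05. The lowest differences were those of rpl3802 (-0.75 ± 0.178, adjusted p = 0.0034), rpl22 (-0.56 ± 0.125, adjusted p = 0.0021) and rps23 (-0.55 ± 0.145, adjusted p = 0.0072), a protein of the decoding centre. In S7E minus S7A, 29 genes were lower and 5 higher, against 20.2% and 22.8% of all genes. The lowest were rpl2701 at -0.75, rpl3802 at -0.73, rps402 at -0.68 and rpl4302 at -0.66, and the highest was rpl102 at 0.65. With all probes of the gene rpl2701 was at -0.36 and did not pass (limma, adjusted p = 0.064). The call of rpl4302 was lost without S7E replicate 2 (-0.59, adjusted p = 0.058). Without the 3 arrays that stand apart, the lower genes in S2A minus S7A were 81, or 62.3% against 26.1% of all genes, and with array weights 78, or 59.5% against 30.3%. In S7E minus S7A they were 47 without the 3 arrays, or 36.2% against 25.6%, and 62 with array weights, or 47.3% against 29.8%. With arrays scaled to equal spread they were 16, or 12.2% against 18.7%. The S2A minus S7A count was 16 without S7A replicate 1, 18 without S7A replicate 3 and 53 without S2A replicate 4. The S7E minus S7A count of 34 in both directions was 22 without S7A replicate 3 or S7E replicate 2.

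No gene passed as lower in S2A/S7A than in S2A. In that contrast 0 genes were lower and 11 higher, against 11.3% and 12% of all genes, and 2 were lower at an unadjusted p under 0.05. The largest difference was that of rps2602, whose product lies at the channel where messenger RNA leaves the small subunit. It was at -0.77, -0.47, -0.50 and -0.67 in S2A and at -0.27, -0.04, 0.38, 0.13 and 0.05 in S2A/S7A, so that the groups did not overlap. The difference was 0.65 ± 0.112 (limma, adjusted p = 0.00088). For S2A/S7A minus S7A it was 0.35 ± 0.112 (adjusted p = 0.02), a call lost without S7A replicate 2 or 4 or S2A/S7A replicate 3 (adjusted p = 0.055, 0.067 and 0.055). The next were rps1202 at 0.52, rpl14 at 0.51 and rpl35A02 at 0.51. With all probes of the gene rps1202 was at 0.20 (adjusted p = 0.14), and its call was also lost without S2A replicate 1 or 4 or S2A/S7A replicate 2 or 3. For rpl14 the call was lost in most settings that left out 1 array, among them 0.31 without S2A replicate 4 (adjusted p = 0.097) and 0.36 without S2A/S7A replicate 3 (adjusted p = 0.12), and with array weights (0.28, adjusted p = 0.068). In S2A/S7A minus S7A, 12 genes were lower and 1 higher, against 18.8% and 22.8% of all genes. The lowest of these were rpl4101 at -0.51 and rpl4102 at -0.42, the pair that was at 0.37 and 0.30 in S7A, then rps402 at -0.41 and rpl3601 at -0.37. With all probes of the gene, 3 of these did not pass: rpl4101 at -0.16 (adjusted p = 0.27), rpl4102 at -0.16 (adjusted p = 0.19) and rpl3601 at -0.10 (adjusted p = 0.35). Leaving out single arrays also ended the call of rpl4101 in 8 cases (adjusted p up to 0.13) and that of rpl3601 in 6 (adjusted p up to 0.11). Counts in the first of these contrasts were 4 without S2A/S7A replicate 3 or 4, 5 without S2A/S7A replicate 2 and 7 without S7A replicate 1 or S7E replicate 3. In the second, 13 in both directions became 7 without S7A replicate 1 or 3 or S2A/S7A replicate 1 or 5, 8 without S2A/S7A replicate 2 and 20 without S2A replicate 4.

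The copies of a family were often not all called. Of the 54 families with several copies, all copies were lower in 1 family in S7A, 21 in S2A, 15 in S2A/S7A and 18 in S7E. Some but not all copies were lower in 11, 21, 21 and 22 families, in the same order. In 2 families in S7E, rpl30 and rpl35A, copies were called in opposite directions. Without S7E replicate 1 the calls of rpl3001, rpl3002 and rpl35A01 were lost (limma, adjusted p = 0.070, 0.33 and 0.35). That of rpl3001 was also lost without S7E replicate 2 or 3 (adjusted p = 0.12 and 0.085). Of the 20 single-copy genes, 0 were lower in S7A, 10 in S2A, 8 in S2A/S7A and 8 in S7E, and 4 were higher in S7E. In S2A the families with the lowest mean in which every copy was lower included rpl38 (rpl3801 at -0.68 and rpl3802 at -0.55), rps23 (rps23 at -0.67 and rps2302 at -0.50), rpl36 (rpl3601 at -0.52 and rpl3602 at -0.59), rps9 (rps901 at -0.48 and rps902 at -0.60), rps26 (rps2601 at -0.43 and rps2602 at -0.60) and rps25 (rps2501 at -0.51 and rps2502 at -0.52). Some of these calls depended on 1 array or on the probes used. Without S2A replicate 1, rps2601 was at -0.22 (adjusted p = 0.094), rps2501 at -0.26 (adjusted p = 0.073) and rps2502 at -0.28 (adjusted p = 0.096). With all probes of the gene rpl3802 was at -0.15 (adjusted p = 0.079).

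The difference between 2 copies on the same array was tested for all 60 pairs. It passed the threshold in 10 pairs in S7A, 15 in S2A, 9 in S2A/S7A and 19 in S7E. In the table of genes and differences together, 34.4%, 57.8%, 62.2% and 60.7% of entries passed in the same order, so the share of pairs that passed was below these shares in every mutant. These entries are nearly all single genes against WT, while a shift common to 2 copies cancels in their difference. Differences between other pairs of genes were not tested, so the shares are not of like quantities. Without any 1 of the S7A arrays the S7A count was between 2 and 6, and the S2A/S7A count was 5 without replicate 2 and 4 without replicate 5 of that mutant.

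**Figure D3:**
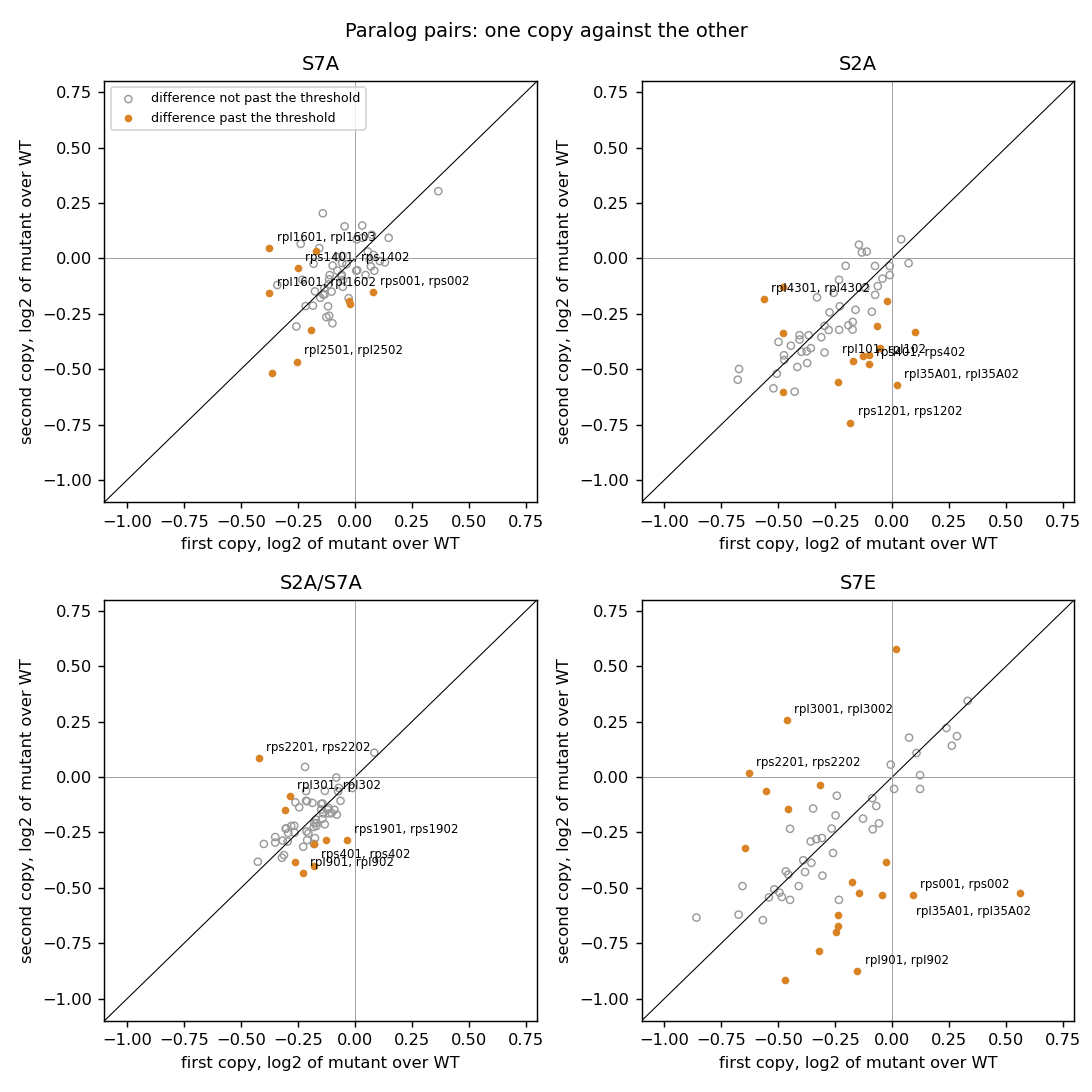
Each point is 1 of the 60 paralog pairs, with the fitted log2 value of the first copy on the horizontal and of the second copy on the vertical axis; filled points are pairs whose difference passed the threshold, and the 5 largest are named. The diagonal marks equal change; the widest departures are in S7E, such as rpl3001 at -0.46 with rpl3002 at 0.26.

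The pair rpl901 and rpl902 differed in 3 mutants. In S7E rpl901 was at 0.42, -0.57 and -0.48, against -0.65, -1.15 and -0.96 for rpl902, so rpl902 was the lower copy on every array. The difference rpl901 minus rpl902 was 0.72 ± 0.092 in S7E (limma, adjusted p = 1e-05) and 0.32 ± 0.079 in S2A (adjusted p = 0.0027). In S2A/S7A it was 0.21 ± 0.071 (adjusted p = 0.02, with 0.10 and 0.07 without replicate 1 or 5 of that mutant). It was 0.19 ± 0.079 in S7A, which did not pass (adjusted p = 0.072).

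The pair rps2201 and rps2202 differed in the mutants S2A/S7A and S7E. In S7E rps2201 was at -0.66, -0.72 and -0.61 while rps2202 was at 0.09, -0.15 and 0.13. In S2A/S7A rps2201 was at -0.47, -0.11, -0.29, -0.58 and -0.76 while rps2202 was at 0.20, 0.23, 0.13, 0.05 and -0.17. The copies did not overlap in S7E and overlapped by 1 array in S2A/S7A. The difference rps2201 minus rps2202 was -0.65 ± 0.081 in S7E (limma, adjusted p = 8.2e-06). Its size in S2A/S7A was -0.50 ± 0.062 (adjusted p = 5.4e-06). In S2A it was 0.15 ± 0.069 (adjusted p = 0.073) while S7A gave -0.02 ± 0.069 (adjusted p = 0.86).

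The fitted difference within the L1 stalk pair changed sign between mutants, but the values of 1 copy were partly recurring values. The first copy, rpl101, was at -0.17, 0.24, 0.25 and 0.08 in S2A and at -0.06, 0.14 and 0.04 in S7E, and it held the recurring value of an array on 9 arrays. The difference rpl101 minus rpl102 was 0.43 ± 0.087 in S2A (adjusted p = 0.00061) and -0.56 ± 0.102 in S7E (adjusted p = 0.00026). To the digits given, rpl101 was at the recurring value of the array on S2A replicates 1, 2 and 3 and on S7E replicate 2. The S2A difference, and with it the change of sign, thus drew on these values. The gene rpl101 itself was called in no mutant.

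The rps4 family has 3 copies. In S7E the fitted values were -0.24 for rps401, -0.67 for rps402 and -0.62 for rps403. In S2A they were -0.10, -0.48 and -0.44. The difference rps401 minus rps402 was 0.44 ± 0.079 in S7E and 0.37 ± 0.068 in S2A (limma, adjusted p = 0.00025 for either), and S2A/S7A gave 0.22 ± 0.061 (adjusted p = 0.0056). In the rpl16 family, also with 3 copies, rpl1601 and rpl1603 differed in S7A. There rpl1603 was at 0.11, -0.02, 0.14 and -0.05, above rpl1601 on every array, and rpl1601 minus rpl1603 was -0.42 ± 0.091 (adjusted p = 0.0025). In S7E, where both were lower, the difference was 0.11 ± 0.106 (adjusted p = 0.40).

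The pair rpl35A01 and rpl35A02 had the largest difference over all arrays of a mutant, 1.09 ± 0.146 in S7E (limma, adjusted p = 1.7e-05) and 0.59 ± 0.125 in S2A (adjusted p = 0.00086). In S7E rpl35A01 was at 1.33, 0.11 and 0.15, and rpl35A02 at -0.44, -0.71 and -0.37. Without S7E replicate 1 the S7E difference was 0.72 (adjusted p = 0.00018), and rps001 minus rps002 was then the larger at 0.75. The pair rpl3001 and rpl3002 differed by -0.72 ± 0.171 in S7E (adjusted p = 0.0022), where rpl3001 was at -0.32, -0.62 and -0.51. The pair rps001 and rps002 differed by 0.62 ± 0.091 in S7E (adjusted p = 3.6e-05), with rps002 at -0.35, -0.75 and -0.60 and rps001 at 0.04, 0.14 and 0.04. To the digits given, rps001 was at the recurring value of the array on S7E replicate 2, and rpl35A01 on S7E replicate 3. The gene rps001 held such a value on 4 arrays. The S7E differences of these 2 pairs, also without replicate 1, thus drew on these values. In S2A rps1201 minus rps1202 was 0.56 ± 0.190 (adjusted p = 0.02), but it rested on replicate 4, where rps1201 was at 0.50 and rps1202 at -1.24, and the adjusted p was 0.21 without it. The S2A difference of rpl4301 and rpl4302, -0.38 ± 0.125 (adjusted p = 0.017), also needed replicate 4 (adjusted p = 0.16 without it), and in S7E this pair differed the other way by 0.46 ± 0.145 (adjusted p = 0.013).

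A readout that the choice of genes did not use came from probes inside introns and across exon junctions. Of the 131 genes, 66 had intron probes and 58 had junction probes. Junction probes read spliced RNA. Of 61 junctions, 9 were lower and 1 higher in S7A (limma on the deposited values; 13.4% and 25.1% of all 4434 junctions). In S2A 42 were lower and 0 higher (30.2% and 27.4% of all), and in S2A/S7A 27 were lower and 0 higher (29.5% and 33.9%). In S7E 32 were lower and 5 higher (28.3% and 31.2%). The median junction value was -0.12, -0.38, -0.20 and -0.31 in S7A, S2A, S2A/S7A and S7E, while the medians of all junctions lay between -0.005 and 0.048. At an unadjusted p under 0.05 there were likewise 0 higher junctions in S2A and in S2A/S7A.

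Intron probes read unspliced RNA and excised introns. Of 73 introns tested, 30 were lower and 2 higher in S7A (37.7% and 6.25% of all 4448 introns), 27 lower and 5 higher in S2A (22.2% and 19%), 22 lower and 9 higher in S2A/S7A (36.1% and 16.6%) and 30 lower and 6 higher in S7E (24.5% and 17.9%). Their medians were -0.16, -0.11, -0.03 and -0.14 in that order.

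Taken relative to the exon probe of the gene, 4 introns were lower and 30 higher in S2A (19.2% and 20% of all 4426 introns), and 5 were lower and 21 higher in S2A/S7A (33.6% and 16.4%). In S7E 11 were lower and 17 higher (25.7% and 18.3%), and in S7A 13 were lower and 5 higher (30.2% and 6.76%). A lower exon value raises this difference by arithmetic alone, so the higher counts in S2A and S2A/S7A stand beside exon medians of -0.30 and -0.20. The S2A count of 34 in both directions was 20 without S2A replicate 1.

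Genes with an intron probe were lower in S2A in 43 of 66 cases and those without in 32 of 65. In S2A/S7A the counts ran the other way, at 23 of 66 and 37 of 65. In S7E they were 33 of 66 and 35 of 65, and in S7A 9 of 66 and 4 of 65. In S2A/S7A minus S2A, 10 of the 11 higher genes had an intron probe, but these 11 are 8.4% of the ribosomal protein genes, against 12% of all genes. All genes were not split by intron probe, so these counts cannot be read as particular to ribosomal protein genes.

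Single introns moved further than the genes that hold them. The intron of rpl102 was at 1.69, 1.69 and 1.75 on the S7E arrays, when its exon was at 0.68, 0.44 and 0.66 and its junction at 0.24, -0.21 and -0.08. Relative to the exon the intron was higher in all 4 mutants, by 0.58 ± 0.077 in S7A, 0.73 ± 0.077 in S2A, 0.43 ± 0.069 in S2A/S7A and 1.11 ± 0.090 in S7E (limma, adjusted p = 2e-05, 1.9e-06, 8e-05 and 1.6e-07 in that order). The exon and intron probes of rpl102 were thus above WT in S7E while the spliced junction was not.

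The intron of rpl2501 changed sign between mutants. It was at -0.78, -0.75, -0.84 and -0.64 in S7A, at 0.43, 0.65, 0.66 and 0.53 in S2A, and at 0.50, 0.55 and 0.67 in S7E. The S7A values lay below WT on every array and those of S2A and S7E above it. Relative to the exon these were -0.50 ± 0.135 in S7A, 0.94 ± 0.135 in S2A and 1.23 ± 0.158 in S7E (limma, adjusted p = 0.0077, 3.8e-05 and 1.3e-05). The intron of rpl3703 was higher than its exon in S2A, where it was at 1.07, 0.63, 0.69 and 1.48 while the exon was at -0.90, -0.30, -0.48 and 0.11. Its difference from the exon was 1.36 ± 0.131 in S2A (adjusted p = 6.5e-07) and between -0.06 and 0.19 in the other mutants, none of which passed.

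The gene rpl701 went the other way in S7E. Its intron was at -1.1, -1.14 and -1.1 and its junction at -0.64, -1.07 and -0.84, while its exon was at -0.35, -0.03 and 0.07. Intron minus exon was -0.97 ± 0.098 (limma, adjusted p = 2e-06) and junction minus exon was -0.70 ± 0.081 (adjusted p = 0.00012). The exon value itself did not pass the test in S7E (adjusted p = 0.16). In all, 5 junctions were lower and 6 higher than their exons in S7E, against 4.69% and 5.32% of all 4416 junctions. The others included rpl102 at -0.57, rpl3802 at 0.67 and rpl2701 at 0.80. The junction of rpl2701 was at 0.99, -0.70 and -0.74, so that it was above its exon by most on replicate 1.

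**Figure D4:**
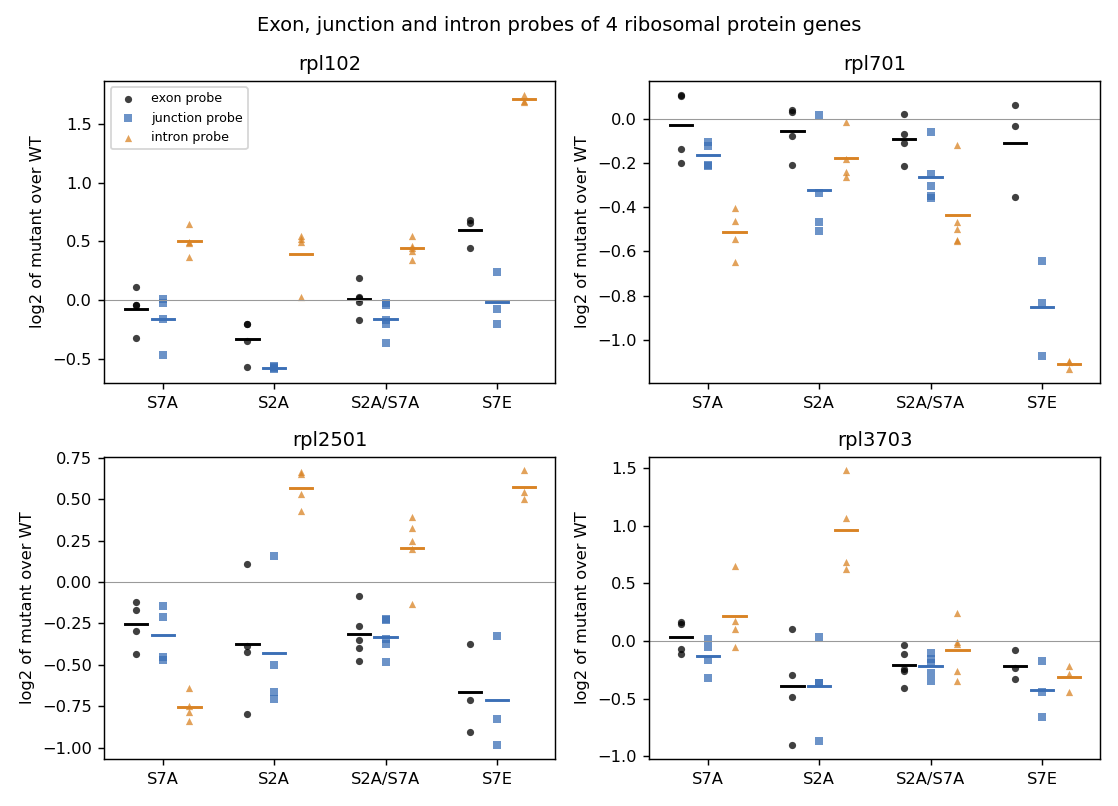
Values of the exon, junction and intron probes of rpl102, rpl701, rpl2501 and rpl3703 on each array (points, log2 of mutant over WT) with group means (bars). The intron of rpl102 reaches 1.69 to 1.75 in S7E, that of rpl701 -1.14 to -1.1, and that of rpl2501 is below WT in S7A and above it in S2A and S7E.

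The first intron of rps29 and that of rpl35A01 were lower relative to the exon in S7E by -0.98 ± 0.206 and -0.99 ± 0.191 (adjusted p = 0.0012 and 0.00057), and the exon of both genes was high on replicate 1 alone. In S7A the lowest introns relative to the exon were those of rpl4101 at -0.63, rpl3001 at -0.58 and the first of rps27 at -0.51. In S2A/S7A the highest were those of rps21 at 0.64 and the second of rps27 at 0.57, with rpl2501 at 0.52.

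Other genes of the ribosome and of its making were read from lists of symbols. Their counts stand beside the shares of all genes given above: 16.6%, 27.1%, 27.7% and 27.6% lower and 18%, 31.3%, 35.1% and 33.5% higher in S7A, S2A, S2A/S7A and S7E. The 7 stalk genes, for the acidic proteins that recruit translation factors, were lower in 2 cases in S2A, 1 in S2A/S7A, 1 in S7E and 0 in S7A, with none higher. The gene rpp101 was lower in S2A (-0.37), S2A/S7A (-0.27) and S7E (-0.46). The lowest was rpp202 in S2A, at -1.32 ± 0.17 (limma, adjusted p = 1.3e-05), whereas in S7E it was at 0.26 ± 0.20 (adjusted p = 0.27). Among the 4 genes for ubiquitin fused to a ribosomal protein, ubi2 was higher in S2A (0.85 ± 0.06), S2A/S7A (0.72 ± 0.05) and S7E (0.49 ± 0.07). The gene ubi5 was lower in S7A (-0.37), S2A (-0.37) and S7E (-0.42), and ubi3 in S7A (-0.43).

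Ribosome biogenesis is the processing of ribosomal RNA and the assembly of the subunits. For it 81 genes were listed by symbol, and the function of each was not checked. Of these, 17 were lower and 0 higher in S7A, and 49 and 6 in S2A. The counts were 36 and 9 in S2A/S7A and 57 and 3 in S7E. Their medians were -0.09, -0.25, -0.12 and -0.40, and the lower genes were 21%, 60.5%, 44.4% and 70.4% of the list. The lowest in S7E were nog2 at -1.04 and sof1 at -1.01. Of 13 genes for RNA polymerase I and its factors, which transcribe ribosomal RNA, 3 were lower in S7A, 8 in S2A, 8 in S2A/S7A and 9 in S7E, with 0, 1, 1 and 1 higher. The largest subunit gene nuc1 was at -0.13, -0.40, -0.33 and -0.94, and rpa43 at -0.14, -0.72, -0.89 and -1.07, in the order S7A, S2A, S2A/S7A and S7E. All of these values but that of rpa43 in S7A passed the test. Of 37 translation factor genes, 8 were lower in S7A, 18 in S2A, 13 in S2A/S7A and 24 in S7E, with 0, 2, 3 and 4 higher. The lower ones were 21.6%, 48.6%, 35.1% and 64.9% of the list.

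The mitochondrial ribosome is a separate machine. Of its 49 genes, 13 were lower and 3 higher in S7A, 9 and 14 in S2A, 9 and 22 in S2A/S7A and 8 and 16 in S7E, with medians of -0.06, 0.04, 0.11 and 0.07. The lower ones were 26.5%, 18.4%, 18.4% and 16.3%, above the share of all genes in S7A and below it in the others. Of 15 genes of the TOR pathway and of candidate regulators, 2 were lower and 2 higher in S7A, 2 and 3 in S2A, 3 and 7 in S2A/S7A and 2 and 9 in S7E. The higher ones were 13.3%, 20%, 46.7% and 60% of this short list. Among them fhl1, a forkhead factor known in budding yeast for binding ribosomal protein genes, was higher in S7A (0.21 ± 0.06), S2A/S7A (0.43 ± 0.06) and S7E (0.37 ± 0.07). The kinase gene psk1 was higher in S2A (0.27 ± 0.08), S2A/S7A (0.29 ± 0.07) and S7E (0.59 ± 0.09). The catalytic kinase genes tor1 and tor2 lay between -0.09 and 0.11 in all 4 mutants, and both passed as higher in S2A/S7A.

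**Figure D5:**
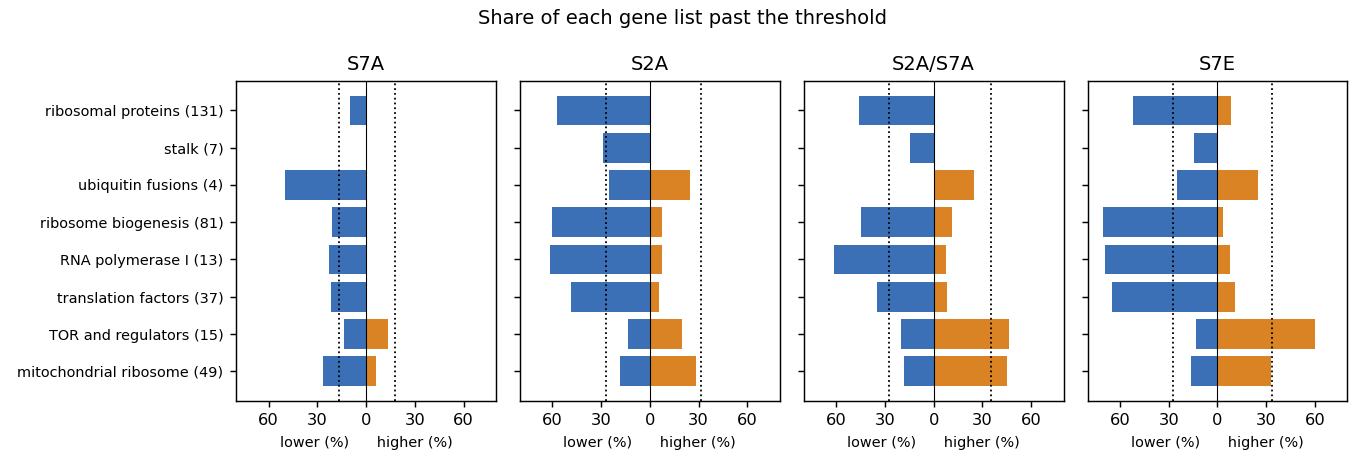
Share of each gene list called lower (to the left) and higher (to the right) in each mutant, in percent of its genes, with the number of genes in brackets; dotted lines mark the shares among all genes tested. Ribosomal proteins, translation factors, ribosome biogenesis and RNA polymerase I reach past the left line in S2A, S2A/S7A and S7E, as do the last 3 of these in S7A. The mitochondrial ribosome reaches past it in S7A, at 26.5%, and in none of the other 3.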

How the data were processed

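The authors deposited 1 value per probe and array for 16 two-colour arrays, whose unit is not stated. The deposited values were taken as log2 ratios of the mutant over WT made by the authors from 2-colour scans, per the labels' protocols, though base, direction and normalization are not stated there. Also per the labels' protocols, total RNA was reverse transcribed and labelled, and the dye of the mutant differed between arrays. Array medians lay between -0.0265 and 0.0267.

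A gene value was its exon probe, or the mean where it had several. IDs were matched without regard to case, 199 of them through a unique synonym, to a table of 12645 reference genes on assembly ASM294v3, used for names only. Features measured on 2 or more arrays in each group were tested: 5171 genes, 4426 introns and 4416 junctions. limma 3.58.1 in R 4.3.3 fitted 4 group means and a dye term to all 16 arrays. Tests were two-sided, with Benjamini-Hochberg adjustment over all features of a table. The dye term passed for 2 genes, neither a ribosomal protein gene. Differences between paralogs were added to the gene table as 60 further entries. The test was checked on simulated data.

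The genes, lists and tests were chosen with earlier results of these data known. Named genes are the 8 lowest and 5 highest called in each mutant, the 4 lowest and 4 highest in each contrast, the 5 largest pair differences in each mutant with their families, genes called in all 4 mutants or in opposite directions, the families of which every copy was lowest in S2A, and the 3 lowest and 3 highest introns in each mutant. Not all of these are given one by one. Values already seen guided the choice of rpl702, of the junctions and of genes from the other lists. They also guided the use of deposited junction and intron values without the exon value, the contrast of S7E with S2A, and leaving out values that recur on 10 or more probes. The genes rpp1, rpp21 and rpp40 were left out of the stalk list, being for RNase P. Promoter and protein sequences were not analysed here.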

Additional observations from a re-analysis of the deposited data

Results flagged for a closer look

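Among 78 groups of 4 or 5 arrays that were checked, 7 held 1 array far from the rest by Dixon's criterion, which flags about 1 in 20 groups by chance. In S2A, rpl1601 was at 0.069 on replicate 4 and between -0.59 and -0.53 on the others, rpl1603 was at -0.19 on replicate 4 against -0.41 to -0.39, and rps902 was at -1.03 on replicate 4 against -0.49 to -0.44. So 3 of the 7 lay on S2A replicate 4, and not all in 1 direction. Also in S2A, rps2502 was at -1.26 on replicate 1 against -0.35 to -0.21, and the large minus small subunit median was 0.037 on replicate 3 against -0.007 to 0.0003. The gene rpl1701 was at -0.36 on S7A replicate 4 against -0.20 to -0.18, and at -0.026 on S2A/S7A replicate 3 against -0.44 to -0.34.

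The effects of S7E and S2A on 3 genes were called in opposite directions, and the difference itself passed the test in each. It was 0.91 for rpl102, 0.56 for rpl3002 and 0.55 for rps3001 (S7E minus S2A, limma, adjusted p = 1.8e-05, 0.0018 and 0.0015). These values came from 3 S7E and 4 S2A arrays. The genes were picked by their opposite calls on these same arrays, so the test of the difference is no separate support. The S7E calls of rpl3002 and rps3001 were lost when single S7E arrays were left out, as given above.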

How the results depend on the processing

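The dye term, centring of the arrays and the use of genes complete on all 16 arrays moved no count by over 1.5 times. The 171 named values gave 4348 combinations of a value with a setting. Of these, 4095 kept their direction and side of the threshold, 251 lost the call and 2 reversed. Both reversals were of rps29 in S7E, which became -0.066 without the 3 arrays that stand apart. With single arrays left out it ranged from -0.081 (S7E replicate 1) to 0.895.

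In S7A the lower genes were 31 with arrays scaled to equal spread and 30 with array weights. They were 28 with the S7A arrays fitted alone and 27 with all probes of a gene. In the order of these 4 settings the higher genes were 5, 8, 3 and 0, against 26.7%, 30.8%, 19% and 17.7% of all genes. Without the 3 arrays, 3 were higher in S7A, against 23% of all genes. In S2A, 43 (32.8%) were lower in a fit of its own arrays, against 20% of all genes. With array weights 4 were higher in S2A, against 42% of all genes. With recurring values left out (of over 20 or of 10 or more probes alike), 1 was higher in S2A, 1 in S2A/S7A and 7 in S7E. Of all genes, 31.4%, 35.8% and 33.6% were then higher in these mutants. The large minus small subunit median in S2A was then 0.0478, as with all probes. The higher genes in S7E were 5 with array weights, 23 with its arrays alone and 3 without the 3 arrays. Those counts were 3.82%, 17.6% and 2.31%, against 34.3%, 44.3% and 29.2% of all genes. Without those 3 arrays, 93 genes were lower in S2A/S7A (71.5% against 33% of all genes). S2A minus S7A then called 81 in either direction (62.3% against 54.5% of all genes). S2A/S7A minus S2A called 29 (22.3% against 41.5%) and S2A/S7A minus S7A 26 (20% against 52.5%). Also without them, 16 paralog differences and 31 introns passed in S7A. The shares of all entries and of all introns that then passed are not given here. Of all genes, 45.6% were called in S7A without the 3 arrays, against 34.6% with them.

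Same-numbered arrays had residual correlations between -0.22 and 0.41 over 21 pairs, 9 of them over 0.1, so the numbers were not taken to pair the arrays. With the replicate number as a block, 4 paralog differences passed in S7A and 5 in S2A/S7A, and other counts stayed within 1.5 times. The share of all entries that passed with the block is not given here.

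With each array left out in turn, the lower genes ranged from 5 to 22 in S7A, 53 to 104 in S2A, 33 to 84 in S2A/S7A and 47 to 80 in S7E. The higher genes ranged from 0 to 2, 0 to 3, 0 to 0 and 2 to 12. The ranges of the contrasts were 16 to 53 for S2A minus S7A, 4 to 16 for S2A/S7A minus S2A, 7 to 20 for S2A/S7A minus S7A and 22 to 46 for S7E minus S7A. Paralog differences ranged from 2 to 14, 13 to 18, 4 to 11 and 15 to 22, and introns from 12 to 24, 20 to 42, 19 to 36 and 20 to 30. The shares of all entries and of all introns in these fits are not given here. The means of the array medians ranged from -0.121 to -0.063, -0.389 to -0.213, -0.235 to -0.163 and -0.343 to -0.271. Large minus small ranged from -0.0043 to 0.018, -0.0022 to 0.013, 0.0089 to 0.034 and -0.051 to -0.0097.

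Few arrays, 1 exon probe per gene and the lack of probe sequences limit what can be read for single genes and close copies. Ratios give no level of a gene, and a change in total RNA per cell cannot be seen in them.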
